A study of Mus musculus with 30 samples.

Results

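Endothelin, FGF2 and BDNF signalling was followed through 8 genes of the mouse retina: the ligands Edn1 and Edn2, the converting enzyme Ece1, the receptors Ednra and Ednrb, the growth factor Fgf2 with its receptor Fgfr1, and the neurotrophin Bdnf. They were chosen by name, as 8 of the 42439 genes counted, with earlier results of these data known. All 8 passed the filter on low counts in every comparison. Neural retinas were taken from Abca4-/-Rdh8-/- mice aged 4 to 6 weeks, of both sexes. These mice lack the ABCA4 transporter and the RDH8 dehydrogenase, which clear retinaldehyde from photoreceptors, so that bright light damages their retinas. Every group carried both deletions, and no wild-type retina and no drug without light was among them.

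The 30 libraries fell into 10 groups of 3, in 2 experiments that were run and analysed separately. The mixture experiment had 4 groups: DMSO without bright light, DMSO with bright light, and light after the mixture BMT (bromocriptine, metoprolol and tamsulosin) or MDB (metoprolol, doxazosin and bromocriptine). The single-drug experiment had 6 groups: its own pair of DMSO groups, and light after BRM (bromocriptine, a dopamine receptor agonist), MTP (metoprolol, a beta blocker), TAM (tamsulosin) or DOX (doxazosin), the last pair being alpha-1 blockers. Light was 10000 lux for 30 min, and drug or DMSO was injected into the peritoneum 30 min before it. Retinas were taken 24 h after the light. These values are recorded for the drug groups and for the light-exposed controls of the mixture experiment. They are not recorded for the light-exposed controls of the single-drug experiment or for the unexposed groups. Doses are not given in the labels used here. Nothing in the labels ties a library to its own animal, and p-values therefore measure only the spread between these libraries, which may be technical.

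Endothelins are short vasoactive peptides cut from precursors by endothelin-converting enzymes. They act on the receptors EDNRA and EDNRB, which are coupled to G proteins. In the injured retina Edn2 is known as a signal of stressed photoreceptors and Ednrb as a receptor on Müller glia. FGF2 is a survival factor for photoreceptors that signals through FGFR1 and other FGF receptors, and BDNF is a neurotrophin that signals through TrkB. These are whole-tissue RNA libraries, so fewer cells of a type and less RNA per cell cannot be told apart, and which cells made each transcript was not measured.

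Total counts per library ran from 12021860 to 25808664. Counts were scaled to library size with TMM factors and are given as CPM, and a gene was called changed at an adjusted p under 0.05 in edgeR's quasi-likelihood test with Benjamini-Hochberg adjustment over all genes tested. Errors on log2 fold changes are standard errors, and values of a group are its 3 libraries in the order of their replicate numbers. The summed CPM of 10 rod markers was 67630 to 80524 in the unexposed libraries of the mixture experiment and 38123 to 46817 in its light-exposed ones, so the libraries hold retina and 9 of the 10 rod genes were called lower with light. All 10 rod genes were called lower with light in the single-drug experiment. Lens-fibre genes were present in every library, and their mean log2 CPM (the lens-fibre score) ran from -0.54 to 7.36. All 3 MDB libraries (5.66 to 6.04) and all 3 BRM libraries (5.27 to 7.36) were in the upper part of that range. TAM replicate 2 stood apart from its group: its 5 reactive-glia markers summed to 585.9 CPM, against 57.4 and 86.3 in the other TAM libraries.

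With light 4 of the 8 genes, Edn2, Ednrb, Fgf2 and Bdnf, rose in both experiments. Edn1, Ednra, Ece1 and Fgfr1 did not pass the test in either. In the mixture experiment 4 of 8 were called higher and 0 lower, where 7.75% of the 16007 genes tested were called higher and 5.47% lower. In the single-drug experiment 4 of 8 were again higher and 0 lower, against 11.4% higher and 12.6% lower of 16249 genes. The median log2 change of the 8 was 0.73 and 0.98, against 0.01 and 0.02 over all genes tested. Because the 8 were chosen with earlier results of these data known, neither the counts nor the medians test an enrichment.

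**Figure D1:**
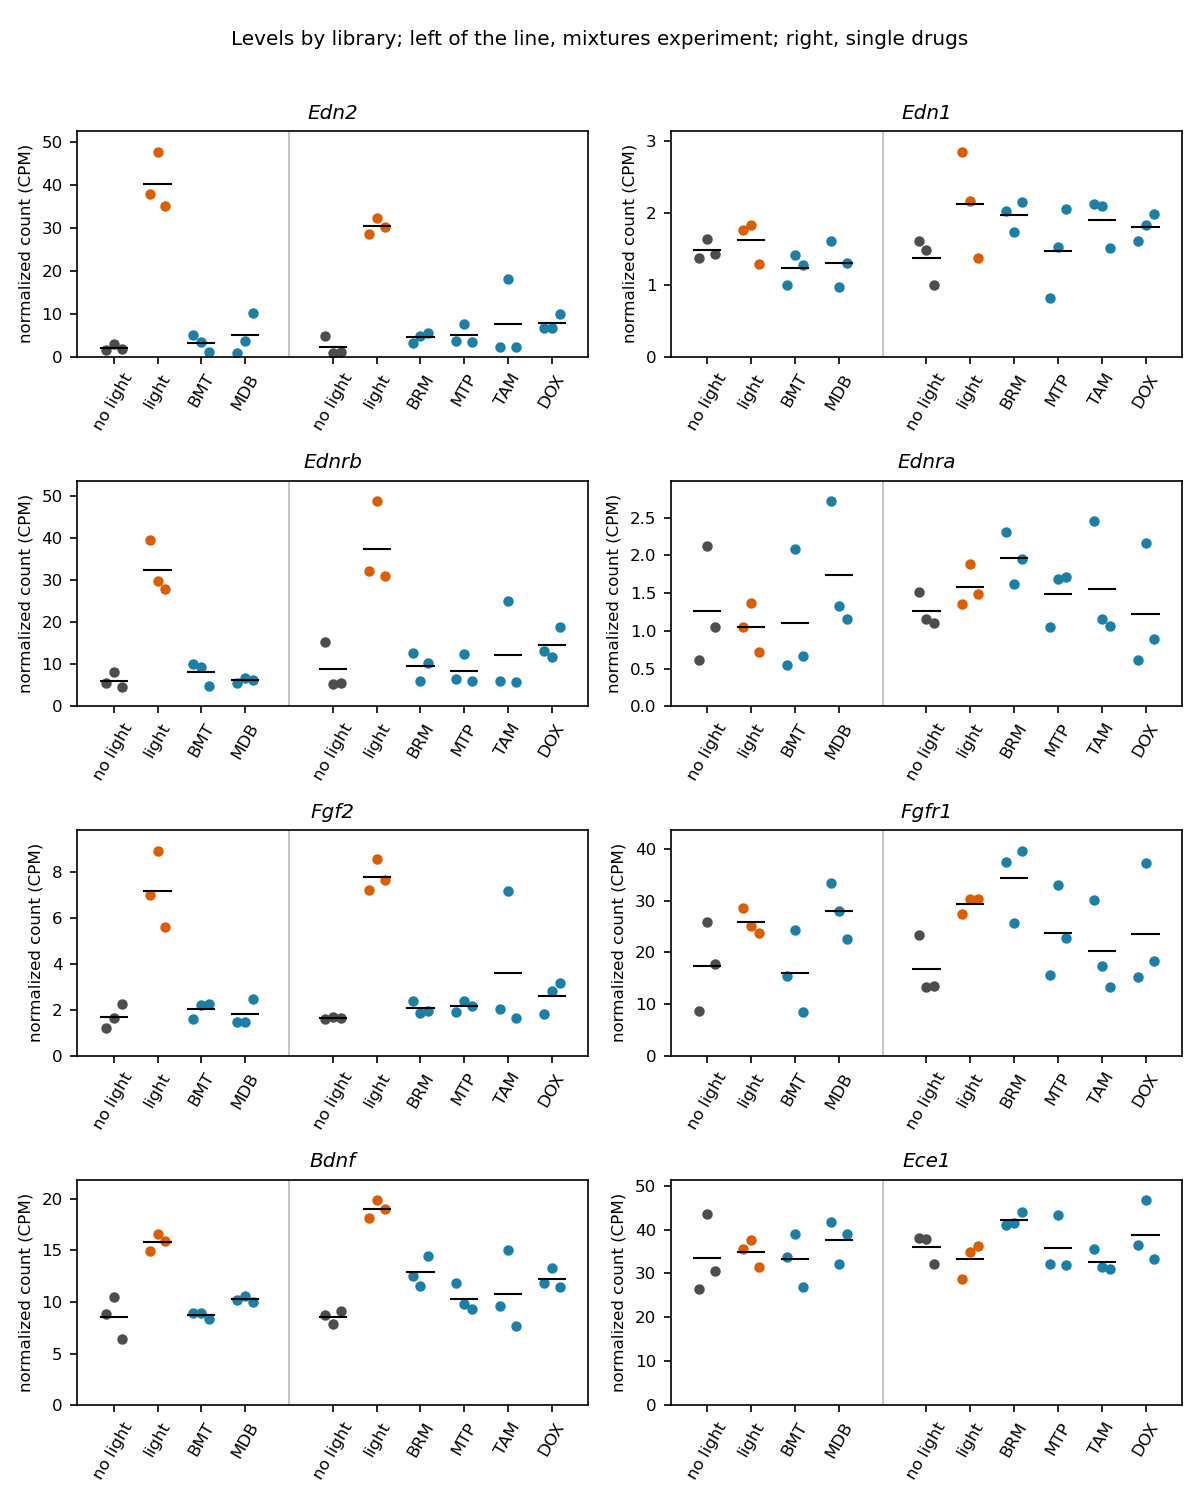
Normalized counts of the 8 genes (CPM, linear axis from 0) in each of the 30 libraries, by group; points are libraries, bars group means, and the grey line parts the mixture experiment from the single-drug experiment. Edn2, Ednrb, Fgf2 and Bdnf are high in all light-exposed libraries (orange) and lower in the drug-treated ones (blue) of the same experiment. TAM replicate 2 lies between these sets of the single-drug experiment (Edn2 at 18.2 CPM), for Fgf2 only just below the light-exposed libraries.

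Edn2, the precursor gene of endothelin 2 (chr4:120161206-120167360, plus strand, GRCm38), had the largest fold change of the 8. Its 250 bases before the start site are shown because Edn2 led the group that moved together (RefSeq, GRCm38.p6, chr4:120160956-120161205, plus strand, 5′ to 3′).
Edn2: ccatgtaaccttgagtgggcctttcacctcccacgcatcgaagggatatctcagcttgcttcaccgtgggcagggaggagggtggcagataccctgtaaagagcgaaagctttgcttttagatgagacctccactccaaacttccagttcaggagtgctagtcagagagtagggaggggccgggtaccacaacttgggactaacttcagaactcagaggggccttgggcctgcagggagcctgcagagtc
A search on both strands for the AP-1 letters TGANTCA and the STAT letters TTCNNNGAA found neither, so no base is in capitals. Over the table's 32851 windows of 250 bases before to 50 after a start, 7.81% hold the AP-1 letters and 8.3% the STAT letters.

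In the mixture experiment Edn2 stood at 1.57, 2.97 and 1.76 CPM without light and at 38.0, 47.8 and 35.0 CPM with it. The groups did not overlap. The log2 fold change was 4.26 ± 0.70 (adjusted p = 0.00187). The unexposed libraries of the single-drug experiment held 4.83, 0.883 and 1.16 CPM and the exposed ones 28.6, 32.3 and 30.2 CPM. Light raised Edn2 there by 3.73 ± 0.74 (adjusted p = 0.00209). Unexposed replicate 1 was the highest of its group. Without it the log2 change was 4.89.

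Edn1, the precursor gene of endothelin 1 (chr13:42301270-42307989, plus strand), was low throughout and did not pass the test. It stood at 1.37, 1.63 and 1.43 CPM without light and 1.76, 1.83 and 1.29 CPM with light in the mixture experiment. These groups overlapped, and the log2 difference was 0.14 ± 0.27 (95% interval -0.44 to 0.72, adjusted p = 0.789). Values in the single-drug experiment were 1.61, 1.49 and 1.00 CPM without light and 2.85, 2.17 and 1.37 CPM with it. That difference of 0.64 ± 0.33 (interval -0.06 to 1.33, adjusted p = 0.182) did not pass the test, and its interval reaches above a doubling. The counts behind Edn1 were 14 to 67 reads per library, which limits the precision. Gm47118, annotated on the opposite strand, overlaps Edn1.

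Ece1, which encodes the enzyme that cleaves big endothelin to the active peptide (chr4:137862237-137965229, plus strand), differed little between groups. Without light it stood at 26.5, 43.5 and 30.5 CPM in the mixture experiment and with light at 35.6, 37.6 and 31.5 CPM. The log2 difference was 0.06 ± 0.18 (interval -0.34 to 0.46, adjusted p = 0.874). The difference in the single-drug experiment was -0.12 ± 0.14 (interval -0.41 to 0.18, adjusted p = 0.599). Both intervals lie inside a halving and a doubling. Transcript Ece1-001 held 97.3% of the gene's count in each experiment.

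Ednrb, the endothelin receptor that binds all endothelins alike (chr14:103814625-103844173, minus strand), was the receptor that rose. In the mixture experiment it stood at 5.43, 8.01 and 4.67 CPM without light and 39.5, 29.7 and 27.8 CPM with it, with no overlap. The log2 fold change was 2.42 ± 0.28 (adjusted p = 0.000174). Unexposed libraries of the single-drug experiment held 15.4, 5.39 and 5.43 CPM and exposed ones 32.1, 48.7 and 30.9 CPM. The change was 2.09 ± 0.54 (adjusted p = 0.0107). Unexposed replicate 1, whose 8 pericyte and smooth-muscle markers summed to 209.5 CPM against 25.3 and 21.9 in the other unexposed libraries, was the highest of its group. Their part in its Ednrb level was not tested. Leaving out unexposed replicate 2 or 3 gave 1.84 (adjusted p = 0.0502) or 1.85 (adjusted p = 0.0531).

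Estimates of both annotated Ednrb transcripts rose. They lie over nearly the same stretch (chr14:103814625-103844173 for Ednrb-201, chr14:103814626-103843696 for Ednrb-202), so the split of reads between them is an estimate. Ednrb-202 held 50.5% and Ednrb-201 49.5% of the gene's count in the mixture experiment. On the deposited normalized FPKM, as log2(FPKM + 1), which understates changes of low values, light raised Ednrb-201 by 1.53 ± 0.20 (limma, adjusted p = 0.000973) and Ednrb-202 by 1.65 ± 0.32 (adjusted p = 0.0111) in the mixture experiment. In the single-drug experiment the changes were 1.26 ± 0.37 (adjusted p = 0.0300) and 1.77 ± 0.40 (adjusted p = 0.0074). The authors' deposited table of the mixture experiment lists both transcripts, with log2 fold changes of -2.41 and -2.62 for no light against light. The authors' deposited tables also list Edn2 in both experiments, at -4.31 and -4.18 for the same contrast.

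Ednra, the receptor that prefers endothelin 1 and 2 (chr8:77663031-77724464, minus strand), was near 1 CPM and did not pass the test. Unexposed libraries of the mixture experiment held 0.609, 2.13 and 1.05 CPM and exposed ones 1.05, 1.37 and 0.72 CPM, so the groups overlapped. The log2 difference was -0.26 ± 0.59 (interval -1.56 to 1.05, adjusted p = 0.831). Among the single-drug libraries it was 0.32 ± 0.41 (interval -0.56 to 1.21, adjusted p = 0.621). Neither interval excludes a doubling.

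Fgf2 (chr3:37312519-37405377, plus strand) rose in both experiments. In the mixture experiment it stood at 1.22, 1.63 and 2.24 CPM without light and 6.98, 8.92 and 5.61 CPM with it. The groups did not overlap, and the log2 fold change was 2.08 ± 0.30 (adjusted p = 0.0008). In the single-drug experiment the unexposed libraries were close together at 1.61, 1.67 and 1.63 CPM and the exposed ones stood at 7.19, 8.53 and 7.62 CPM. The change was 2.24 ± 0.41 (adjusted p = 0.00119).

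Nudt6, on the opposite strand (chr3:37404910-37420211, minus strand), shares 640 exonic bases with Fgf2 in GENCODE M21 and moved with it. The library kit marks strand, but the strand setting of the counting is not given in the sources used here, so reads of the shared stretch cannot be told apart. Nudt6 stood at 1.47, 1.53 and 1.90 CPM without light and 5.49, 5.99 and 4.89 CPM with it in the mixture experiment, a log2 change of 1.73 ± 0.24 (adjusted p = 0.000698). Its change in the single-drug experiment was 1.47 ± 0.28 (adjusted p = 0.00139). Pearson's r between Fgf2 and Nudt6 was 0.88 over the 30 libraries, on log2 CPM centred by experiment, a description of libraries that share groups. Both main Fgf2 transcripts had higher mean CPM with light in both experiments, Fgf2-001 going from 0.795 to 3.97 and from 1.27 to 3.91, and Fgf2-007 from 0.855 to 3.19 and from 0.353 to 3.88. On normalized FPKM 1 of the pair passed the test in each experiment, and whether the transcripts differed between experiments was not tested. Fgf2-001, which reaches into Nudt6, was called in the mixture experiment (1.45 ± 0.26, limma, adjusted p = 0.00782) and not in the single-drug one (1.09 ± 0.43, adjusted p = 0.106). Fgf2-007, which ends before Nudt6 begins, gave 1.31 ± 0.36 (adjusted p = 0.0529) and 2.17 ± 0.38 (adjusted p = 0.00156).

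**Figure D2:**
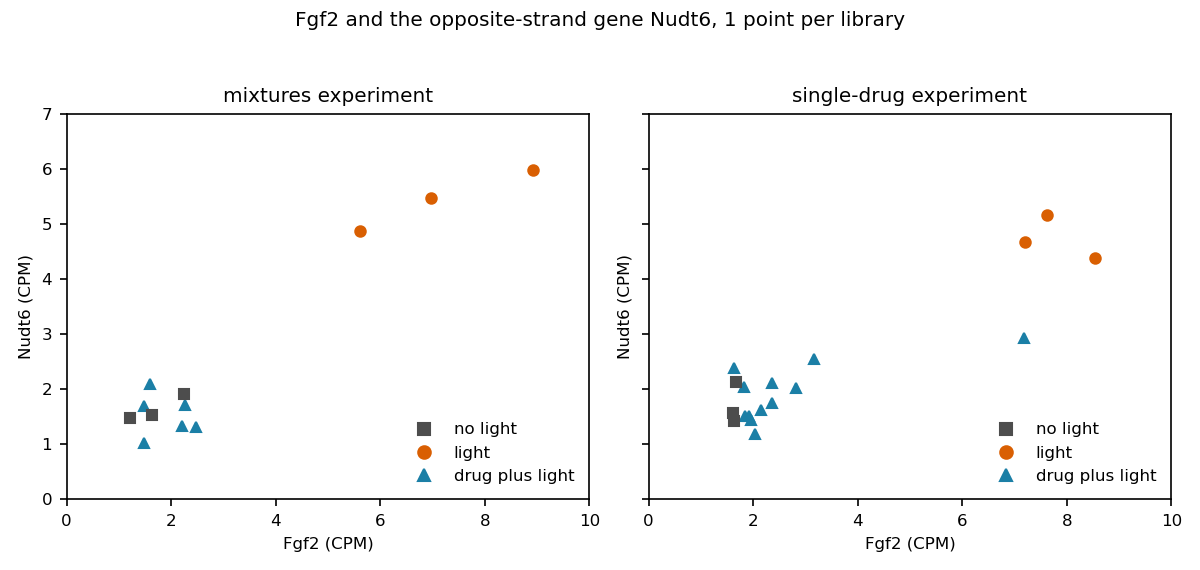
Normalized counts of Fgf2 (horizontal, CPM) and Nudt6 (vertical, CPM), 1 point per library, for the mixture experiment (left) and the single-drug experiment (right). The light-exposed libraries (orange circles) lie at 5.61 to 8.92 CPM of Fgf2. The 1 blue triangle inside that range is TAM replicate 2, at 7.17 CPM of Fgf2 and 2.93 CPM of Nudt6.

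Fgfr1, the receptor tyrosine kinase for FGF2 (chr8:25513654-25575714, plus strand), did not pass the test on light. It stood at 8.63, 25.9 and 17.8 CPM without light and 28.7, 25.2 and 23.8 CPM with it in the mixture experiment. The unexposed libraries spread so widely that the groups overlapped, with a log2 difference of 0.57 ± 0.38 (interval -0.27 to 1.41, adjusted p = 0.386). Its unexposed libraries in the single-drug experiment held 23.5, 13.3 and 13.4 CPM and the exposed ones 27.5, 30.3 and 30.4 CPM. They did not overlap, and the difference of 0.81 ± 0.36 (interval 0.04 to 1.59) missed the threshold at an adjusted p of 0.124.

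The levels of Fgfr1, Ednra and Ece1 moved with the lens-fibre score. Over the 30 libraries, on log2 CPM centred by experiment, Pearson's r with the score was 0.68 for Fgfr1, 0.66 for Ednra and 0.70 for Ece1. For Edn2, Ednrb, Fgf2 and Bdnf it was 0.01, 0.01, -0.15 and 0.13, and for Edn1 0.17. These values describe libraries that share groups. With the score as a covariate, the light change of Fgfr1 was 0.76 (edgeR, adjusted p = 0.0100) in the single-drug experiment and 0.87 (adjusted p = 0.0507) in the mixture experiment. The same covariate left Edn2 at 4.43 (adjusted p = 0.000878) in the mixture experiment and 3.74 (adjusted p = 0.00160) in the single-drug one.

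**Figure D3:**
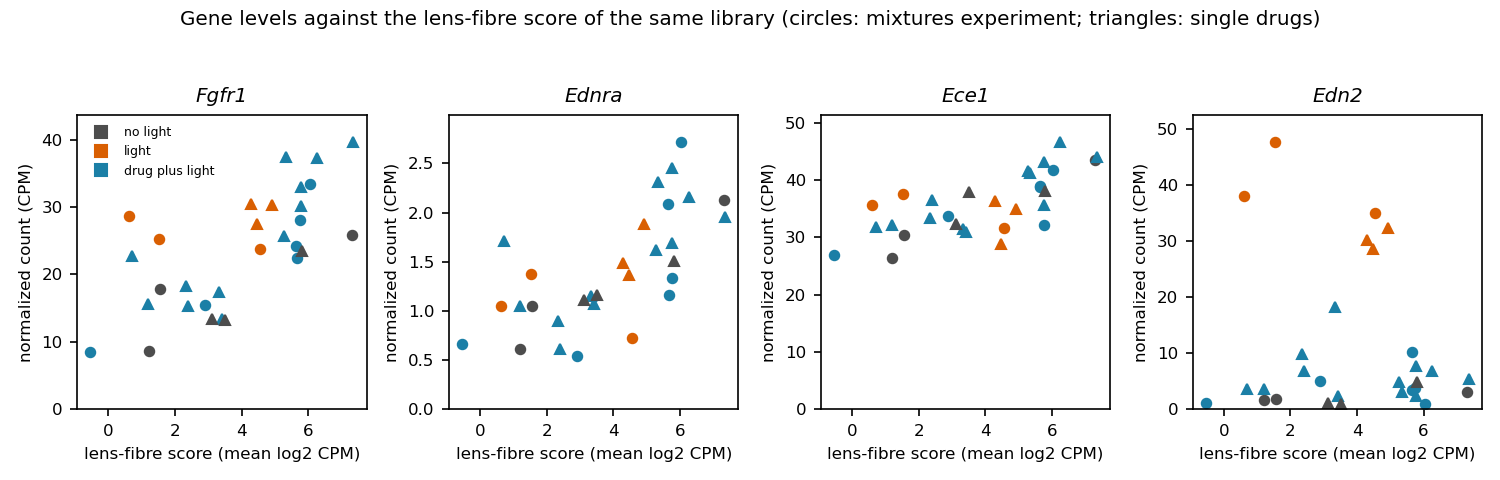
Normalized counts (CPM, linear axis from 0) of Fgfr1, Ednra, Ece1 and Edn2 against the lens-fibre score of the same library (mean log2 CPM of 6 lens-fibre genes), 1 point per library, circles for mixtures and triangles for single drugs. Fgfr1, Ednra and Ece1 are higher in libraries of high score, with r between 0.66 and 0.70, whereas Edn2 is set apart by light (orange) at any score.

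Bdnf (chr2:109674700-109727007, plus strand) rose less than the other genes of the group but with little spread. In the mixture experiment it stood at 8.83, 10.5 and 6.38 CPM without light and 15.0, 16.6 and 15.9 CPM with it, a log2 change of 0.89 ± 0.15 (adjusted p = 0.00222). In the single-drug experiment it stood at 8.76, 7.85 and 9.17 CPM without light and 18.2, 19.9 and 19.0 CPM with it. The change there was 1.15 ± 0.19 (adjusted p = 0.000535), and the groups did not overlap in either experiment.

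Bdnf is transcribed from several start sites onto a shared coding exon, and 4 of its 11 annotated transcripts held at least 10% of its count. Of its 7 RefSeq windows 2 hold a match, and these stretches are shown because no window of another gene of the 8 held either motif. Windows were found for 7 of the 8 genes, 16 in all, of which 1 held the AP-1 letters and 1 the STAT letters. Over all 32851 windows 7.81% hold the AP-1 letters and 8.3% the STAT letters, so the matches are not read as particular to Bdnf. Capitals mark the match (GRCm38.p6, plus strand, 5′ to 3′).
Bdnf STAT letters, chr2:109674568-109674596: gcacgaacttTTCTAAGAAgtttcctttt
Bdnf AP-1 letters, chr2:109676870-109676896: cccacaaaaaTGAATCAaggtaatttc
The first begins at position -122 from the start of Bdnf-001, which held 11.6% of the gene's count in the mixture experiment, and the second at -152 from the start of Bdnf-005, which held 2.1%. Matches are a description of the letters only. Whether the light change of a Bdnf transcript differed between the experiments was not tested. On normalized FPKM Bdnf-007 changed by 1.03 ± 0.22 (limma, adjusted p = 0.0173) in the mixture experiment and by 0.33 ± 0.27 (adjusted p = 0.461) in the single-drug one. Bdnf-006 changed by 1.36 ± 0.24 (adjusted p = 0.0018) in the single-drug experiment and was not in the other normalized table. Its share of reads is an estimate among transcripts that share most of their length.

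**Figure D4:**
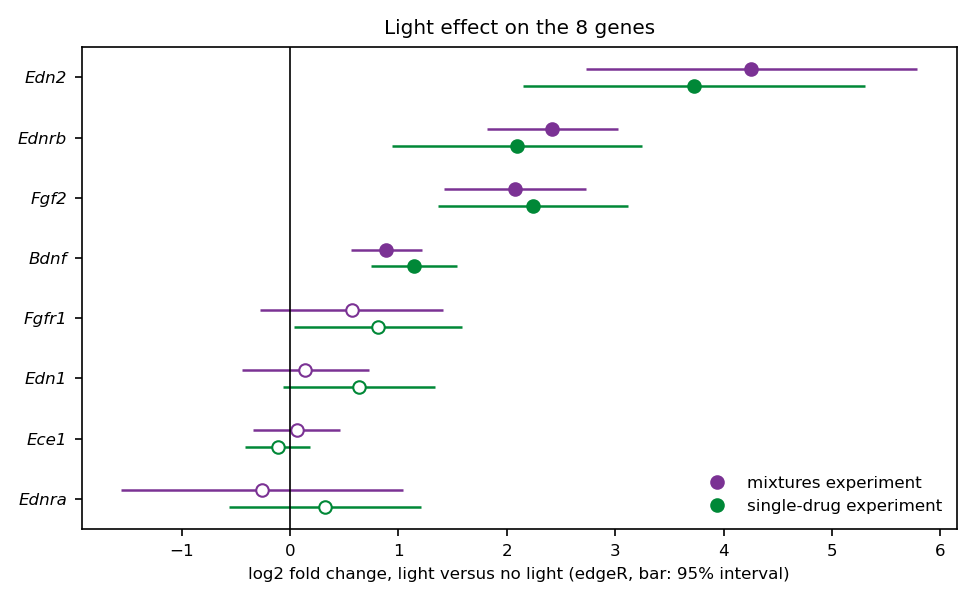
Log2 fold change of each of the 8 genes, light against no light (points), with 95% intervals (bars), in the mixture experiment (purple) and the single-drug experiment (green); filled points passed the test. Edn2 leads at 4.26 and 3.73, Ednrb and Fgf2 lie between 2.08 and 2.42 in both, Bdnf is at 0.89 and 1.15, and the intervals of the other genes reach or nearly reach 0.

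No difference in the light change between the experiments passed the test of the difference itself. None of the 8 genes was called (edgeR, 0.00% of 16645 genes). An unadjusted p under 0.05 was met by 0 of 8, against 2518 of all genes. DESeq2, which called 410 genes of all tested, called none of the 3 to which it gave an adjusted p (Ednrb, Ece1 and Fgfr1). The difference, single-drug minus mixture, was -0.53 ± 1.02 for Edn2 (interval -2.64 to 1.58), -0.33 ± 0.65 for Ednrb (-1.68 to 1.02), 0.16 ± 0.52 for Fgf2 (-0.92 to 1.25) and 0.26 ± 0.25 for Bdnf (-0.25 to 0.77). These intervals do not exclude a sizeable difference for Edn2 or Ednrb.

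Levels of different genes were compared per length, as FPKM over the transcripts that hold at least 10% of a gene's count. Without light in the mixture experiment Ece1 was highest at 7.22 ± 1.72 FPKM (SD, n = 3), then Fgfr1 at 3.17 ± 2.20, whose libraries spread over the next genes' range. Fgf2 (1.88 ± 0.38), Ednrb (1.62 ± 0.45), Edn2 (1.52 ± 0.54) and Bdnf (1.49 ± 0.69) followed within one another's spread. Edn1 (0.659 ± 0.065) and Ednra (0.365 ± 0.221) were lowest. With light Edn2 was highest at 32.6 ± 5.98 FPKM, its lowest library at 27.4 FPKM and the highest library of any other of the 8 at 12.1 FPKM. Ednrb (9.73 ± 2.08), Fgf2 (8.81 ± 2.24) and Ece1 (8.28 ± 1.01) followed, with overlapping values, then Fgfr1 (5.41 ± 1.87) and Bdnf (4.19 ± 0.32). The Fgfr1 libraries overlapped those of Fgf2 and Ece1 above and of Bdnf below. Edn1 (0.817 ± 0.174) and Ednra (0.269 ± 0.085) were again lowest. In the single-drug experiment Edn2 was likewise highest with light, at 24.9 ± 1.81 FPKM, against 1.60 ± 1.51 without.

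Further genes of these pathways were counted in lists, which were also chosen with earlier results of these data known. The shares of all genes called with light, given above, are the background of each count. They were 7.75% higher and 5.47% lower in the mixture experiment, and 11.4% higher and 12.6% lower in the single-drug experiment. Of 16 tested genes of the endothelin pathway 2 were higher and 1 lower in the mixture experiment, and 4 higher and 1 lower in the single-drug experiment. The list's median log2 change was 0.11 and 0.13. Gna13 and Plcb4, a G-protein subunit and a phospholipase, rose by 0.35 ± 0.08 (adjusted p = 0.0116) and 0.36 ± 0.05 (adjusted p = 0.000849) in the mixture experiment. Prkca, a protein kinase C gene that also marks rod bipolar cells, fell by 0.37 there (log2, SE 0.08, adjusted p = 0.00908), and Plcb3 stood at 0.77 ± 0.27 (adjusted p = 0.0860). In the single-drug experiment all 4 were called in the same directions, Plcb3 at 0.74 ± 0.20 (adjusted p = 0.0143).

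In the FGF pathway list 1 of 20 genes was higher in the mixture experiment and 2 of 21 in the single-drug experiment, with 0 lower and medians of 0.01 and 0.23. Gab1, an adaptor protein of receptor tyrosine kinases, rose by 0.84 ± 0.13 (adjusted p = 0.00147) and 1.16 ± 0.18 (adjusted p = 0.000345) in the 2 experiments. Flrt3, a transmembrane partner of FGF receptors, stood at 0.31 ± 0.11 (adjusted p = 0.0862) and rose by 0.69 ± 0.15 (adjusted p = 0.00373). Fgf11 and Fgf12, intracellular FGF-like proteins, did not pass the test in either. Of the 13 feedback and target genes of FGF and ERK signalling 3 and 6 were higher and 0 lower, with medians of 0.15 and 0.39. Spred3, an inhibitor of Ras to ERK signalling, rose by 0.85 ± 0.10 (adjusted p = 0.000207) and 0.72 ± 0.14 (adjusted p = 0.00187). Spred1 also rose in both, whereas the immediate-early gene Ier2 was called in the mixture experiment (1.19 ± 0.24, adjusted p = 0.00674) and not in the other (0.22 ± 0.23, adjusted p = 0.528). The ERK phosphatase gene Dusp6 was called in the single-drug experiment (0.86 ± 0.14, adjusted p = 0.000436) and not in the mixture experiment (0.42 ± 0.20, adjusted p = 0.203).

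In the neurotrophin list 2 of 11 genes were higher and 1 lower in the mixture experiment, and 4 of 13 higher and 1 lower in the single-drug experiment, with medians of 0.37 and 0.47. Plat, the tissue plasminogen activator that can start proBDNF processing, rose by 0.73 ± 0.20 (adjusted p = 0.0367) and 1.21 ± 0.26 (adjusted p = 0.00359). Sort1, the sorting receptor of proneurotrophins, fell by 0.31 (SE 0.05, adjusted p = 0.00262) and by 0.36 (SE 0.06, adjusted p = 0.000666). Vgf, a neurotrophin-inducible peptide gene, did not pass in either.

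Of 14 other trophic factors 3 were higher and 1 lower in each experiment. Ret, a receptor of the GDNF family, rose in the mixture experiment (0.48 ± 0.12, adjusted p = 0.0216). Lif, a cytokine of the interleukin 6 family, rose there from 0.34 ± 0.18 to 7.32 ± 1.42 CPM (SD, n = 3). The log2 changes of Lif in the 2 experiments were 4.39 ± 0.69 (adjusted p = 0.0015) and 4.99 ± 0.97 (adjusted p = 0.00175). Clcf1, of the same family as Lif, rose by 2.06 ± 0.33 (adjusted p = 0.0015) and 1.71 ± 0.42 (adjusted p = 0.00756). Nxnl1, which encodes the rod-derived cone viability factor, fell by 1.11 (SE 0.15, adjusted p = 0.000509) and by 1.50 (SE 0.17, adjusted p = 9.12e-05). The rod markers fell with it.

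Marker genes of other cells were read beside these changes. All 5 reactive-glia markers were called higher with light in both experiments, and their summed CPM was 59.9 to 77.0 without light and 714.5 to 1120.8 with light in the mixture experiment. Of 8 Müller glia markers 1 was higher and 2 lower, and of 10 vascular endothelium markers 1 was higher. The summed vascular markers were 103.2 to 106.8 CPM without light and 188.0 to 232.2 CPM with it in the mixture experiment. Müller glia markers summed to 2225.5 to 3393.3 CPM without light and 1712.7 to 1776 CPM with it in the mixture experiment. In the single-drug experiment the Müller glia sums were 2608.9 to 2946 CPM without light and 2225.2 to 2401.2 CPM with it. Astrocyte markers (1 of 3 tested called higher in each experiment) summed to 21.1 to 43.5 CPM without light and 43.8 to 53.6 CPM with it in the mixture experiment, and to 21.1 to 45.0 and 69.0 to 76.1 CPM in the single-drug experiment. Cone markers summed to 1374 to 1472 CPM without light and 671 to 850.1 CPM with it in the mixture experiment, with 4 of 7 called lower and 1 higher, and 5 of 7 were lower and 1 higher in the single-drug experiment. The part of these cells in the rise of Edn2, Ednrb, Fgf2 and Bdnf was not tested.

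Mixtures before light lowered the same group of genes. After BMT 4 of 8 were lower than in light-exposed controls, where 9.78% of all genes were called lower, and after MDB 4 of 8, where 5.93% were. They were the 4 that light had raised. Both comparisons and the light comparison share the 3 light-exposed libraries, so each one's values are given side by side without a test of their likeness.

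Edn2 stood at 5.08, 3.43 and 1.10 CPM after BMT and 0.969, 3.69 and 10.2 CPM after MDB. The changes against light were -3.63 ± 0.66 (adjusted p = 0.00354) and -3.03 ± 0.64 (adjusted p = 0.0112). MDB replicate 3 was well above the others of its group but under every light-exposed library. Ednrb stood at 10.1, 9.21 and 4.75 CPM after BMT and 5.54, 6.66 and 6.30 CPM after MDB, changes of -2.00 ± 0.27 (adjusted p = 0.000573) and -2.39 ± 0.27 (adjusted p = 0.000254). Fgf2 held 1.59, 2.21 and 2.26 CPM after BMT and 1.48, 1.49 and 2.47 CPM after MDB, changes of -1.83 ± 0.29 (adjusted p = 0.00171) and -1.98 ± 0.30 (adjusted p = 0.00141). Bdnf held 8.90, 8.94 and 8.34 CPM after BMT and 10.2, 10.6 and 9.99 CPM after MDB, changes of -0.86 ± 0.15 (adjusted p = 0.00257) and -0.62 ± 0.15 (adjusted p = 0.0207). In all 8 cases the mixture and light groups did not overlap, and how many of all genes separate likewise was not counted.

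Without MDB replicate 2 the count fell to 2 of 8, Ednrb and Fgf2, with Edn2 at -2.86 (adjusted p = 0.0580) and Bdnf at -0.65 (adjusted p = 0.0580). The Bdnf call after MDB was also lost without light replicate 2 or 3 or MDB replicate 1 or 3, at adjusted p of 0.0515 to 0.0788. Edn1, Ednra, Ece1 and Fgfr1 did not pass the test after either mixture. Fgfr1 stood at 15.5, 24.3 and 8.45 CPM after BMT and 33.5, 28.1 and 22.5 CPM after MDB, where all lens-fibre scores were above 5. With the score as a covariate Fgfr1 was called lower after BMT (-0.89, adjusted p = 0.0363). The reactive-glia sum was 58.7 to 172.6 CPM after BMT and 65.5 to 99.7 CPM after MDB.

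Single drugs lowered between 1 and 4 of the genes that light had raised. MTP lowered 4 of 8 genes (4.91% of all genes were lower), BRM 3 of 8 (7.32%), DOX 2 of 8 (5.06%) and TAM 1 of 8 (4.00%). For Edn2, Ednrb, Fgf2 and Bdnf every library of every single-drug group was below every light-exposed library, whether or not the test passed. How many of all genes separate in this way was not counted. These 4 are the genes called higher in the same light-exposed libraries, and that choice favours a separation below them. All 4 drugs were compared with the same 3 light-exposed libraries.

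After BRM Edn2 stood at 3.13, 4.86 and 5.45 CPM and fell against light (-2.76 ± 0.70, adjusted p = 0.0169). Ednrb, at 12.6, 6.04 and 10.2 CPM, fell by 1.95 (SE 0.54, adjusted p = 0.0252), and Fgf2, at 2.36, 1.84 and 1.96 CPM, fell by 1.92 (SE 0.40, adjusted p = 0.00679). Bdnf, at 12.5, 11.6 and 14.5 CPM, missed the threshold (-0.56 ± 0.18, adjusted p = 0.0517). Ece1 stood at 41.1, 41.5 and 44.0 CPM, above every light-exposed library, with a difference of 0.34 ± 0.14 that did not pass (adjusted p = 0.115) in a group whose lens-fibre scores were all above 5. Without light replicate 2, BRM replicate 2 or BRM replicate 3, only Fgf2 of the 8 was called.

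After MTP Edn2 stood at 3.67, 7.65 and 3.53 CPM (-2.62 ± 0.70, adjusted p = 0.0257) and Ednrb at 6.40, 12.4 and 6.07 CPM (-2.17 ± 0.54, adjusted p = 0.0196). Fgf2, at 1.92, 2.36 and 2.16 CPM, fell by 1.85 (SE 0.40, adjusted p = 0.00907). Bdnf, at 11.8, 9.79 and 9.31 CPM, fell by 0.89 (SE 0.19, adjusted p = 0.00729). Without light replicate 2, MTP replicate 1 or MTP replicate 3 the count fell to 2, Fgf2 and Bdnf. With the lens-fibre score as a covariate Edn2 stood at -2.45 (adjusted p = 0.0506).

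After TAM 1 library set the result. Edn2 stood at 2.29, 18.2 and 2.32 CPM, Ednrb at 6.10, 24.9 and 5.77 CPM, and Fgf2 at 2.03, 7.17 and 1.63 CPM. In each case replicate 2, the library of high reactive-glia markers, was several times the others and still below the light-exposed libraries, for Fgf2 only just (7.17 against 7.19 CPM). None of these passed the test, at -1.97 ± 0.67 (adjusted p = 0.0762), -1.58 ± 0.53 (adjusted p = 0.0706) and -1.09 ± 0.39 (adjusted p = 0.0922). Bdnf, at 9.57, 15.1 and 7.65 CPM, fell by 0.82 (SE 0.19, adjusted p = 0.0114). Without TAM replicate 2 all 4 were called, at -3.72 for Edn2 (adjusted p = 0.000714) and -2.65 for Ednrb (adjusted p = 0.00214). Fgf2 stood at -2.09 (adjusted p = 6.90e-05) and Bdnf at -1.15 (adjusted p = 0.000114). The share of all genes called without that library is not given here, and the share given above for TAM is no background for this count. Without light replicate 2 or TAM replicate 3 none was called, with Bdnf at -0.78 (adjusted p = 0.0506) and -0.62 (adjusted p = 0.0636).

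Of the single-drug groups DOX had the highest mean Edn2 (7.79 CPM) and Ednrb (14.5 CPM), within the spread of TAM. Edn2 stood at 6.75, 6.76 and 9.85 CPM (-1.96 ± 0.67, adjusted p = 0.0688) and Ednrb at 13.0, 11.7 and 18.7 CPM (-1.36 ± 0.52, adjusted p = 0.101), and neither passed. Fgf2, at 1.83, 2.82 and 3.16 CPM, fell by 1.58 (SE 0.40, adjusted p = 0.0207), and Bdnf, at 11.8, 13.3 and 11.5 CPM, fell by 0.64 (SE 0.18, adjusted p = 0.0356). Without any 1 of the 6 libraries compared, 0 or 1 of the 8 was called. Reactive-glia markers summed to 279.6 to 408.7 CPM after DOX, against 82.7 to 172.7 after BRM and 137.1 to 220.9 after MTP.

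**Figure D5:**
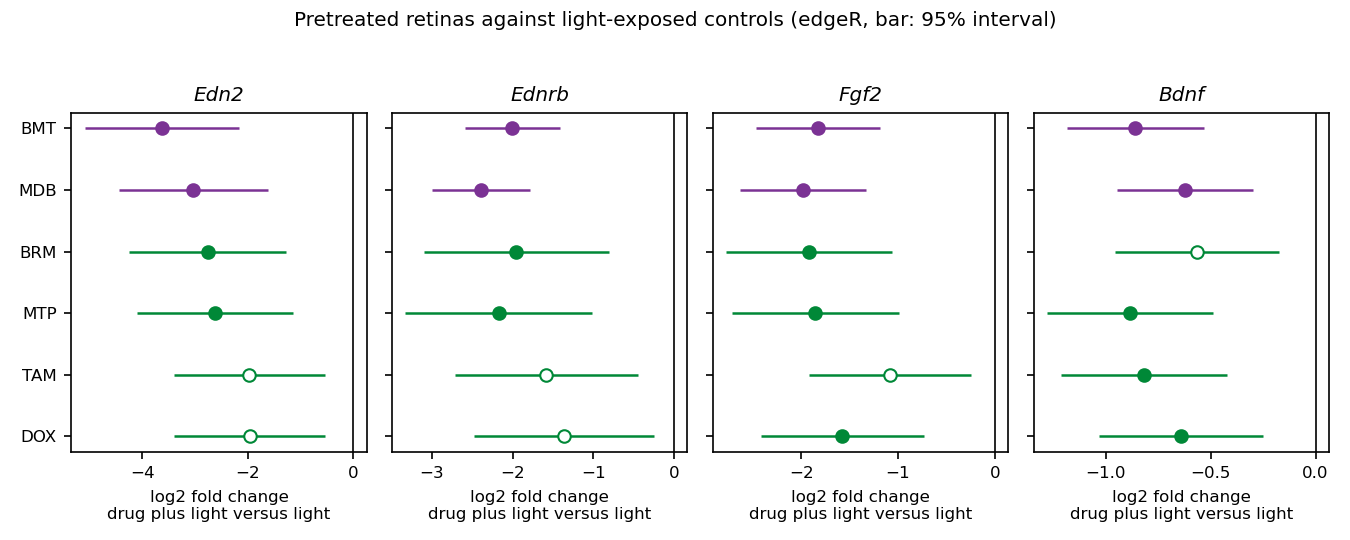
Log2 fold change of Edn2, Ednrb, Fgf2 and Bdnf in drug-treated, light-exposed retinas against light-exposed controls (points), with 95% intervals (bars), for the mixtures BMT and MDB (purple) and the single drugs (green); filled points passed the test, and each gene has its own horizontal scale. All points lie below 0, from -3.63 for Edn2 after BMT to -0.56 for Bdnf after BRM.

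No difference between drugs passed the test in these genes. Among the 4 single drugs the F test of any difference called none of the 8 (edgeR, 0.00% of genes). Its unadjusted p was under 0.05 for 0 of 8, against 2181 of all 16249 genes. DESeq2 called 346 genes but none of the 7 to which it gave an adjusted p, Edn2 having none. The smallest adjusted p among Edn2, Ednrb, Fgf2 and Bdnf was 0.542, for Fgf2. BMT against MDB called none (edgeR, 0.00%), with an unadjusted p under 0.05 for 0 of 8 and for 3001 of all 16007 genes. By DESeq2 it called 617 genes but none of the 6 with an adjusted p, Edn1 and Ednra having none. The difference, BMT minus MDB, was -0.60 ± 0.65 for Edn2 (interval -2.04 to 0.83), 0.39 ± 0.27 for Ednrb (-0.21 to 0.98), 0.16 ± 0.30 for Fgf2 (-0.50 to 0.81) and -0.24 ± 0.15 for Bdnf (-0.56 to 0.09). The Bdnf values of the mixtures did not overlap, BMT being lower. Mixtures and single drugs were in separate experiments and were not compared.

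Drug-treated, light-exposed retinas were also set against unexposed ones. None of the 8 genes was called after BMT, MDB, BRM, MTP, TAM or DOX (edgeR, 0.00% of genes in each). DESeq2 called 13, 22, 381, 3, 7 and 11 genes of all tested in these comparisons and none of the 8, but it gave an adjusted p to all 8 only after BMT and MDB. It gave one to 4 of them after BRM, 4 after MTP, 7 after TAM and 0 after DOX, and Edn2 had none after any single drug. In edgeR an unadjusted p under 0.05 was met by 1009 and 1642 of all 16007 genes after BMT and MDB. After BRM, MTP, TAM and DOX it was met by 2535, 1395, 1327 and 2110 of all 16249 genes. Of the 8 genes it was met by 0 of 8 after BMT, MDB and MTP and 2 of 8 after BRM, TAM and DOX. After BRM they were Fgfr1 (1.04 ± 0.37, adjusted p = 0.210) and Bdnf (0.58 ± 0.19, adjusted p = 0.181), after TAM Edn2 (1.76 ± 0.72, adjusted p = 0.586) and Fgf2 (1.16 ± 0.41, adjusted p = 0.586), and after DOX Edn2 (1.77 ± 0.71, adjusted p = 0.329) and Bdnf (0.51 ± 0.19, adjusted p = 0.307).

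The Edn2 difference from unexposed retinas was 0.63 ± 0.70 after BMT (interval -0.90 to 2.15), 1.23 ± 0.68 after MDB (-0.27 to 2.73), 0.97 ± 0.72 after BRM (-0.56 to 2.50) and 1.11 ± 0.72 after MTP (-0.42 to 2.64). These intervals reach well above a doubling, so the tests do not show that Edn2 was back at the unexposed level. Ednrb after MDB was at 0.03 ± 0.28 (-0.57 to 0.64) and Bdnf after BMT at 0.03 ± 0.15 (-0.30 to 0.36), both inside a halving and a doubling. All 3 DOX libraries were above all unexposed ones for Edn2, Fgf2 and Bdnf, and all 3 MTP libraries for Fgf2 and Bdnf. All 3 BRM libraries were above them for Fgf2, Bdnf, Fgfr1, Edn1, Ednra and Ece1. None of these differences passed the test, and how many of all genes separate likewise was not counted. Of these genes Fgfr1, Ednra and Ece1 moved with the lens-fibre score (r of 0.66 to 0.70). That score was 5.34, 5.27 and 7.36 in the BRM libraries and 5.81, 3.51 and 3.12 in the unexposed ones.

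Other genes of the lists followed the drug comparisons in part. They were picked by their light test in the mixture experiment, so a change back against its light-exposed libraries was favoured by that choice. Lif fell after BMT (-3.93 ± 0.66, adjusted p = 0.00221), MDB (-4.03 ± 0.67, adjusted p = 0.00272) and BRM (-3.15 ± 0.84, adjusted p = 0.0219), and stood at -2.45 ± 0.81 after MTP (adjusted p = 0.0673), -2.16 ± 0.80 after TAM (adjusted p = 0.0996) and -1.54 ± 0.77 after DOX (adjusted p = 0.202). Spred3 and Gab1 fell after all 6 pretreatments, Spred3 by 0.58 to 0.96 and Gab1 by 0.53 to 0.89 on the log2 scale. Nxnl1 rose after all 6, from 0.82 ± 0.15 after MDB (adjusted p = 0.00452) to 1.21 ± 0.17 after TAM (adjusted p = 0.000842).

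Genes whose levels were most like those of each member were ranked by Pearson's r over the 30 libraries, on log2 CPM centred by experiment, among 12926 genes. The libraries share groups, so r describes them and carries no p. Edn2 was most like Tnnt2 (0.97), Antxr2 (0.97) and Prtg (0.95). Among the genes most like Ednrb were Msn (0.97) and Myof (0.96), and among those most like Fgf2 were Rock2 (0.95) and Crym (0.94). Bdnf was most like Csf1, Lcn2 and Mtmr11 (0.93, 0.93 and 0.92). The leading genes of the other members were Inf2, Itga3 and Fkbp10 for Fgfr1 (0.93, 0.91 and 0.91), Efnb1 and Add2 among others for Ece1 (0.89 and 0.89), Six3os1, Efna5 and Dync1i1 for Ednra (0.88, 0.86 and 0.86) and Mlxip, Dpy19l3 and Ing2 for Edn1 (0.74, 0.71 and 0.68).

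Within the 8, Edn2 and Ednrb were most alike (0.92), followed by Ednrb and Fgf2 (0.88), Edn2 and Fgf2 (0.88), Edn2 and Bdnf (0.85), Ednrb and Bdnf (0.84) and Fgf2 and Bdnf (0.82). Ednra and Fgfr1 (0.77), Ece1 and Fgfr1 (0.70) and Ednra and Ece1 (0.65) formed another set, that which also followed the lens-fibre score.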

How the data were processed

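Poly(A) RNA of the neural retina was sequenced in 30 libraries. Trimmomatic, Bowtie2, eXpress, TopHat2, edgeR, limma and GRCm38.p3 are named in the submitters' processing notes, without versions. The deposited expected counts are eXpress's effective counts per transcript, per the labels. Here they were summed per gene, rounded, filtered (filterByExpr, minimum count 10) and tested with edgeR 4.0.16 in R 4.3.3, all groups of an experiment in 1 fit. The deposited FPKM values, raw and normalized by the authors, are per transcript, and the normalized ones were tested with limma 3.58.1 on log2(FPKM + 1). The authors' deposited log2 fold changes and adjusted p-values come from their own tables. The test of the difference in light change used all 30 libraries. Named genes were the 8 members, Nudt6, from each pathway list the 4 genes ranked first by adjusted p, light against no light, in the mixture experiment, the 3 genes most like each member, and transcripts with at least 10% of a member's count. A few genes that this rule names are not reported here. The members and lists were chosen with earlier results of these data known. Promoter windows are RefSeq's, and protein sequences were not used here. Tests were tried on simulated data. Alternatives were DESeq2 1.42.0, RLE factors, no filter, the replicate block, limma on FPKM, the lens-fibre score as a covariate and leaving out each library.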

Additional observations from a re-analysis of the deposited data

How the results depend on the processing

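The number of the 8 genes called was recomputed under every alternative. With 1 library left out it ranged from 2 to 4 for MDB against light, 1 to 3 for BRM, 2 to 4 for MTP, 0 to 4 for TAM and 0 to 1 for DOX, so these counts rest on single libraries. Under the same omissions it was 4 for light and for BMT against light in the mixture experiment, and 3 or 4 for light in the single-drug experiment. On the FPKM it was 3 for light in each experiment, and with the lens-fibre score as a covariate 5 for BMT and for light in the single-drug experiment, Fgfr1 being added. For TAM it was 2 with DESeq2 and 2 on the deposited FPKM. For DOX it was 1 with no filter on low counts and 1 on the FPKM. On the FPKM, with the transcript of highest mean in each gene's place, Bdnf after DOX turned from a fall to 0.0767 (adjusted p = 0.893), where Bdnf-007 alone stood for the gene, and Fgf2 with light in the mixture experiment was 1.31 (adjusted p = 0.0529). The shares of all genes called that are given above belong to the main fits and are no background for the counts under alternatives. On the FPKM 1465 of 17982 transcripts were called with light in the mixture experiment and 2953 of 18483 in the single-drug one. Against light 1290 of 18483 were called after TAM and 1296 after DOX. Shares under the other alternatives are not given here. DESeq2 gave no adjusted p for Edn2 in the single-drug experiment. Of the alternative fold changes of called genes 265 kept direction and call, 43 kept direction only and 1 reversed; the cause of the lost calls was not tested. Same-numbered libraries were not paired: all 3 pairs correlated above 0.1 in 1 of 15 comparisons (range -0.26 to 0.56). With the replicate number as a block the counts of members called stayed at 4, 4 and 4 for light, BMT and MDB, 4 for light in the single-drug experiment, and 3, 4, 1 and 2 for BRM, MTP, TAM and DOX. Depth limits Edn1 and Ednra, with 11 to 67 reads per library. Without light Edn2 and Fgf2 were also thinly counted, at 19 to 96 and 24 to 47 reads per library, which limits the precision of their fold changes.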
